A study of Mus musculus with 30 samples.

Results

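Zp1, Zp2, Zp3, Gdf9 and Bmp15, 5 of the 18022 genes in the deposited expression table, were followed across 10 groups of mouse ovaries. They were chosen by gene symbol, as the genes for the glycoproteins of the egg coat and for a pair of growth factors secreted by the oocyte, and all 5 had a row. Adult females of the outbred CD1 stock gave the ovaries, and whole-ovary messenger RNA was sequenced in 30 libraries. There were 5 arms, each dosed for 10 days: a vehicle; DEHP, which is di(2-ethylhexyl) phthalate, at 20 ug/kg/day and at 200 ug/kg/day; and DiNP, which is diisononyl phthalate, at 20 ug/kg/day and at 100 ug/kg/day. These arms are called vehicle, DEHP20, DEHP200, DiNP20 and DiNP100 here. Each arm has 3 ovary libraries from directly after dosing (0 months) and 3 from 3 months later, and a library is also called an ovary here. The older groups therefore differ from the younger in both age and time since dosing, and these cannot be told apart. Both compounds are phthalate esters used as plasticizers. Nothing in the labels states that the 3 replicates of a group came from separate mice, so each p-value reflects the spread among these samples alone, which may be technical.

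The zona pellucida is the glycoprotein coat that a growing oocyte lays down around itself. In the mouse it is built of ZP1, ZP2 and ZP3: ZP2 and ZP3 form the filaments, ZP1 cross-links them, and ZP2 is the protein to which sperm bind. GDF9 and BMP15 are secreted members of the TGF-beta family through which the oocyte acts on the surrounding granulosa and cumulus cells, and mice without Gdf9 are infertile with follicles arrested at the primary stage. All 5 genes are textbook oocyte genes, so in a whole ovary their level follows both the number and stage of oocytes and the RNA made by each.

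In GRCm38.p6, the build that the submitters' processing notes name, Zp1 (Entrez 22786) lies on chromosome 19 at 10914296 to 10920601 on the minus strand, with 12 exons. Zp2 (Entrez 22787) lies on chromosome 7 at 120126762 to 120145291 on the minus strand, with 18 exons. Zp3 (Entrez 22788) lies on chromosome 5 at 135980105 to 135988624 on the plus strand, with 8 exons. Gdf9 (Entrez 14566) has 2 exons on chromosome 11 at 53430774 to 53437904, plus strand. Bmp15 (Entrez 12155) also has 2 exons, on chromosome X at 6314054 to 6320724, minus strand. The 5 genes therefore sit on 5 different chromosomes and are not neighbours.

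The RefSeq promoter table for GRCm38.p6 held 2 of the 5 genes, Zp3 and Bmp15, 1 for a coat protein and 1 for a growth factor. The 250 bases before the start sites of these 2 are shown. Capitals mark CANNTG, the E-box core bound by FIGLA and its partners, and TAATTG or TAATTA, the core bound by NOBOX, each searched on both strands. The Zp3 stretch is chr5:135979855-135980104 on the plus strand and the Bmp15 stretch is chrX:6320725-6320974 on the minus strand, both written 5′ to 3′ in the direction of the gene.
Zp3: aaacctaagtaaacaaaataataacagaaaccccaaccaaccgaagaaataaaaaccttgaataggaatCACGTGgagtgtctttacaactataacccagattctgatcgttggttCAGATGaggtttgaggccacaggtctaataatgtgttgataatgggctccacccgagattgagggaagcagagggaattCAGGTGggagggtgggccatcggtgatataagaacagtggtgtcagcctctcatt
Bmp15: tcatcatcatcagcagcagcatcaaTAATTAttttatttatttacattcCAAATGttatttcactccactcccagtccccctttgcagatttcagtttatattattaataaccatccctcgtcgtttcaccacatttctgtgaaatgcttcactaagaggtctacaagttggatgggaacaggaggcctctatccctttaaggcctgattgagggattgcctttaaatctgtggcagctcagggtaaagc
Zp3 had 3 E-box cores, whose first bases lay 181, 134 and 55 bases before the start, and the first of them was CACGTG. Bmp15 had 1 E-box core, CAAATG, at 201 bases and 1 TAATTA at 225 bases before its start. CANNTG occurred in 66.2% of 32851 promoters of the same length, CACGTG in 6.02%, TAATTG in 7.17% and TAATTA in 4.84%. A match of this kind describes the letters and shows no binding.

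The libraries had approximately 24.6 to 41 M reads (M, mega), estimated from the smallest steps between table values, and libraries of 1 group correlated at r = 0.908 to 0.98 over genes. A mean above 0 log2 CPM (the log of read counts after scaling for depth) was required for testing, and 14740 genes passed, all 5 oocyte genes among them. Markers of the labelled tissue were plain: the summed level of 8 granulosa markers ran from 1633 to 4584 CPM and that of 21 other oocyte genes from 290.4 to 1079 CPM.

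Levels of the 5 genes differed among themselves. Compared per kilobase of transcript, Gdf9 stood highest with a mean over the 30 libraries of 5.38 ± 0.50 log2 CPM per kilobase (SD), then Zp2 at 5.20 ± 0.55 and Zp3 at 4.96 ± 0.56. Zp1, whose protein is the minor component of the coat, stood at 3.59 ± 0.55 and Bmp15 at 3.48 ± 0.52. Neighbours in this order differed by less than 1 SD over libraries, except Zp3 and Zp1. The genes rose and fell together, so their differences within a library spread less. The SD of that difference was 0.18 for Zp2 and Gdf9, 0.11 for Zp2 and Zp3 and 0.27 for Zp1 and Bmp15. The means per kilobase pool both time points. In bulk ovary RNA, fewer oocytes and less RNA per oocyte cannot be told apart, which holds for every level given here.

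Zp2 means at 0 months were 6.75 ± 0.35 log2 CPM with vehicle (SD, n = 3 here and for the other groups), 6.96 ± 0.43 with DEHP20, 6.77 ± 0.53 with DEHP200, 6.59 ± 0.09 with DiNP20 and 6.67 ± 0.39 with DiNP100. At 3 months they were 5.86 ± 0.76, 5.98 ± 0.29, 6.07 ± 0.24, 5.92 ± 0.44 and 5.89 ± 0.42 in the same order of arms. Every 0-month group mean of Zp2 was above every 3-month group mean, while within a time point every treated group overlapped vehicle.

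Zp1 at 0 months had means of 4.91 ± 0.35 log2 CPM with vehicle, 5.17 ± 0.30 with DEHP20, 4.89 ± 0.63 with DEHP200, 4.86 ± 0.26 with DiNP20 and 4.89 ± 0.55 with DiNP100. Its 3-month means were 4.24 ± 0.72, 4.20 ± 0.23, 4.24 ± 0.28, 4.12 ± 0.48 and 4.10 ± 0.39. The same division of the means by time held, with the older mean below the younger mean in all arms. Single older and younger ovaries overlapped for Zp1 with vehicle, DEHP200 and DiNP100.

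Zp3, the other filament protein, had 0-month means of 5.72 ± 0.39 log2 CPM with vehicle, 6.0 ± 0.37 with DEHP20, 5.78 ± 0.62 with DEHP200, 5.55 ± 0.24 with DiNP20 and 5.69 ± 0.50 with DiNP100. The means at 3 months were 4.98 ± 0.74, 4.95 ± 0.28, 5.04 ± 0.33, 4.90 ± 0.51 and 5.05 ± 0.44. Again the 5 younger groups held the 5 highest means.

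Gdf9 means at 0 months were 6.45 ± 0.46 log2 CPM with vehicle, 6.79 ± 0.34 with DEHP20, 6.56 ± 0.66 with DEHP200, 6.36 ± 0.33 with DiNP20 and 6.39 ± 0.45 with DiNP100. They were 5.94 ± 0.68, 5.99 ± 0.35, 5.96 ± 0.28, 5.82 ± 0.46 and 5.94 ± 0.44 at 3 months. The 3-month means of Gdf9 differed from each other by far less than their SD.

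Bmp15, the only X-linked gene of the 5, had 0-month means of 5.30 ± 0.36 log2 CPM with vehicle, 5.68 ± 0.27 with DEHP20, 5.01 ± 0.93 with DEHP200, 5.38 ± 0.32 with DiNP20 and 5.31 ± 0.51 with DiNP100. At 3 months its means were 4.99 ± 0.66, 4.83 ± 0.21, 4.99 ± 0.36, 4.81 ± 0.53 and 4.60 ± 0.51. For Bmp15 the lowest younger mean (DEHP200) and the highest older mean (vehicle) were nearly equal. DEHP20 at 0 months had the highest mean of all 10 groups for each of the 5 genes.

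**Figure D1:**
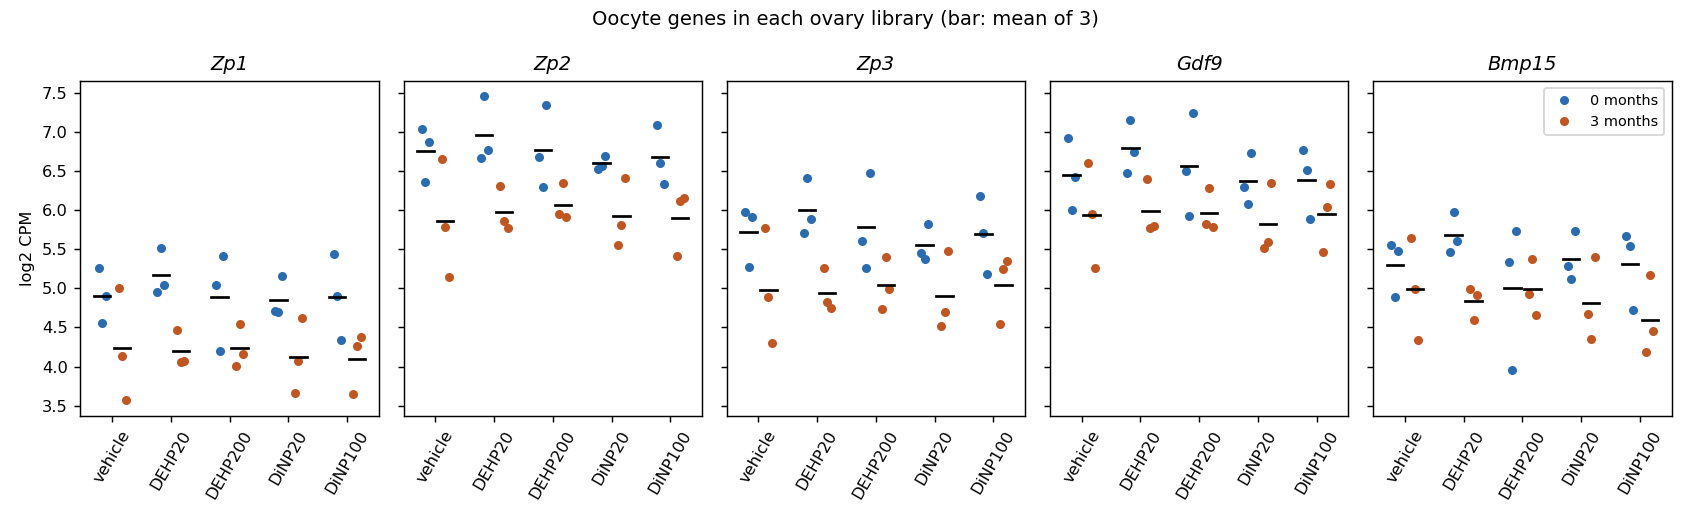
Log2 CPM of Zp1, Zp2, Zp3, Gdf9 and Bmp15 (vertical axis) in the 30 ovary libraries by arm (horizontal axis), blue at 0 months and orange at 3 months; points are libraries and the black bar is the mean of 3. The blue bars lie above the orange bars in each arm, by the least for Bmp15 in DEHP200 (5.01 against 4.99).

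Between libraries the spread was wide. The highest library stood 3.86-fold above the lowest for Zp1, 4.94-fold for Zp2, 4.51-fold for Zp3, 3.97-fold for Gdf9 and 4.06-fold for Bmp15. Within groups the pooled SD ran from 0.43 for Zp2 to 0.51 for Bmp15 on the log2 scale, against a median of 0.246 over the 14740 genes tested. The lowest library was replicate 3 of vehicle at 3 months for Zp1, Zp2, Zp3 and Gdf9, and replicate 2 of DEHP200 at 0 months for Bmp15.

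The treated ovaries were compared with vehicle ovaries of the same time point, which asks what 10 days of phthalate did at once and 3 months on. No gene passed limma's test at an adjusted p under 0.05 in any of these 8 comparisons, the 5 oocyte genes included. For these 5 genes the unadjusted p also stayed above 0.05 throughout, and treated and vehicle libraries overlapped for each of them in each comparison. The 4 comparisons at a time point share the same 3 vehicle libraries.

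The vehicle ovaries at 0 months stood at 5.55, 4.89 and 5.47 log2 CPM for Bmp15 in replicates 1 to 3, and the DEHP20 ovaries at 5.46, 5.98 and 5.60. The DEHP20 values ran higher, but the groups overlapped. Bmp15, which had the smallest p of the 5 genes, differed by 0.38 ± 0.39 (SE; limma, adjusted p = 0.9999), and the other 4 genes by 0.21 to 0.34. In that comparison limma called 0 of 14740 genes (0%), with 350 at an unadjusted p under 0.05, and 9.4% of genes had groups that did not overlap, against 0 of the 5.

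With DEHP200 the 0-month Bmp15 values were 5.33, 3.96 and 5.73, so that replicate 2 stood far below every vehicle ovary and replicate 3 above them. The difference was -0.30 ± 0.39 (limma, adjusted p = 0.948), and without replicate 2 it was 0.23. The other 4 genes differed by -0.02 to 0.11. For DEHP200 limma called 0 genes (0%), with 740 at an unadjusted p under 0.05, and groups did not overlap for 7.85% of genes and 0 of the 5.

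Zp2 had the smallest p in both DiNP comparisons at 0 months. Its vehicle values were 7.03, 6.36 and 6.87 log2 CPM, and with DiNP20 it stood at 6.53, 6.56 and 6.69, within the vehicle range, a difference of -0.16 ± 0.33 (limma, adjusted p = 0.9997). The DiNP100 ovaries stood at 7.09, 6.60 and 6.33, from just above to just below the vehicle range, a difference of -0.08 ± 0.33 (limma, adjusted p = 0.9999). The other 4 genes lay between -0.17 and 0.08 with DiNP20 and between -0.06 and 0.01 with DiNP100. In both DiNP comparisons limma called 0 genes (0%), with 307 and 258 at an unadjusted p under 0.05, and the groups did not overlap for 9.73% and 8.31% of genes and for 0 of the 5.

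At 3 months the vehicle ovaries differed much among themselves: Bmp15 stood at 5.65, 4.99 and 4.34 log2 CPM in replicates 1 to 3 and Zp2 at 6.65, 5.78 and 5.15. With DEHP20, Bmp15 stood at 4.99, 4.59 and 4.92, inside the vehicle range, and differed by -0.16 ± 0.39 (limma, adjusted p = 1). The other 4 genes differed by -0.04 to 0.12. Of all genes limma called 0 (0%), with 248 at an unadjusted p under 0.05, and groups did not overlap for 5.59% of genes and 0 of the 5.

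DEHP200 ovaries at 3 months had Zp2 values of 5.95, 6.34 and 5.92, again within the vehicle range, and a difference of 0.21 ± 0.33 (limma, adjusted p = 0.9999). The other 4 genes were within -0.00 to 0.06 of vehicle. For this contrast too limma called 0 genes (0%), with 212 at an unadjusted p under 0.05, and the share of genes whose groups did not overlap was 5.27%, with 0 of the 5.

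The DiNP ovaries at 3 months gave the largest 3-month difference of the 5 genes. Bmp15 stood at 4.67, 4.36 and 5.40 with DiNP20, a difference of -0.19 ± 0.39 (limma, adjusted p = 1), and at 4.18, 5.17 and 4.45 with DiNP100, a difference of -0.39 ± 0.39 (limma, adjusted p = 0.699). One DiNP100 ovary lay below all vehicle ovaries and the others inside their range. The other 4 genes lay between -0.12 and 0.06 with DiNP20 and between -0.14 and 0.07 with DiNP100. Limma called 0 genes (0%) in both, with 224 and 1368 at an unadjusted p under 0.05, and groups did not overlap for 6.07% and 5.82% of genes and for 0 of the 5. A test for any treatment difference within a time point called 0 genes (0%) at 0 months and 0 (0%) at 3 months, with 325 and 588 at an unadjusted p under 0.05, and 0 of the 5 by either measure.

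These intervals are wide. For Zp2, the most precisely measured of the 5, the 95% interval of a treated-versus-vehicle difference was -0.47 to 0.89 with DEHP20 at 0 months and -0.65 to 0.72 with DiNP100 at 3 months, so the data do not exclude differences of either sign within these bounds.

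The compounds were given at 1 shared dose, 20 ug/kg/day. At 0 months all 5 genes were higher with DEHP20 than with DiNP20, by a median of 0.37 and by 0.30 for Bmp15 to 0.45 for Zp3, although none passed limma's test and 0% of all genes did, with 302 at an unadjusted p under 0.05. Zp3 stood at 5.71, 6.41 and 5.88 with DEHP20 and at 5.45, 5.37 and 5.82 with DiNP20, where the highest DiNP20 ovary overlapped the DEHP20 range. The Zp3 difference was 0.45 ± 0.36 (95% interval -0.29 to 1.19; limma, adjusted p = 0.9999). The 21 other oocyte genes were likewise all higher with DEHP20, by a median of 0.37, and 0 of them passed. Groups did not overlap for 9.57% of genes and for 0 of the 5.

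At 3 months the same contrast gave a median of 0.06 and a largest difference for Gdf9, 0.17 ± 0.36 (95% interval -0.57 to 0.91; limma, adjusted p = 0.9999). Gdf9 stood at 6.39, 5.78 and 5.79 with DEHP20 and at 5.51, 5.59 and 6.34 with DiNP20, ranges that overlap. Across all genes limma called 0 (0%), with 427 at an unadjusted p under 0.05, and 9.22% of genes and 0 of the 5 had groups that did not overlap.

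Between doses, the largest difference was again in Bmp15. DEHP200 minus DEHP20 at 0 months was -0.67 ± 0.39 (95% interval -1.48 to 0.14; limma, adjusted p = 0.945), and the other 4 genes differed by -0.28 to -0.19. Without replicate 2 of DEHP200, which stood at 3.96 where the other DEHP200 ovaries stood at 5.33 and 5.73, the Bmp15 difference was -0.15. The DEHP doses at 3 months differed by -0.03 to 0.16, and the DiNP doses by -0.07 to 0.14 at 0 months and by -0.21 to 0.15 at 3 months. Limma called 0 genes (0%) in each of the 4 dose comparisons, with 582, 141, 86 and 1794 genes at an unadjusted p under 0.05 in the order given and 0 of the 5 among them. Groups did not overlap for 7.14%, 5.33%, 3.92% and 8.24% of genes in that order, and for 0 of the 5.

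Time was the comparison in which the 5 genes differed. Averaged over the 5 arms, all 5 fell from 0 to 3 months, where limma called 20.3% of genes in either direction and 9.63% as lower. Over the 14740 genes the median change was 0.00. Zp2 ran from 6.30 through a median of 6.67 to 7.45 log2 CPM in the 15 younger ovaries and from 5.15 through 5.92 to 6.65 in the 15 older ones. All 15 older ovaries lay below the younger median and 11 below the lowest younger ovary. Zp2 fell by 0.81 ± 0.15 on the log2 scale (limma, adjusted p = 0.00126), to 0.572 of its 0-month level.

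Zp1 ran from 4.20 through 4.95 to 5.52 in the younger ovaries and from 3.57 through 4.14 to 5.0 in the older ones. It fell by 0.77 ± 0.16 (limma, adjusted p = 0.00251), with 14 of 15 older ovaries under the younger median. Zp3 ran from 5.18 through 5.71 to 6.47 and then from 4.30 through 4.89 to 5.77. It fell by 0.76 ± 0.16 (limma, adjusted p = 0.00317), and 9 older ovaries lay below the lowest younger one for Zp3, as for Zp1.

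The growth factor genes fell by less. Gdf9 ran from 5.89 through 6.50 to 7.24 in the younger ovaries and from 5.25 through 5.82 to 6.61 in the older. Its change was -0.58 ± 0.16 (limma, adjusted p = 0.0148), with 8 older ovaries below the lowest younger one. Bmp15 ran from 3.96 through 5.47 to 5.98 and then from 4.18 through 4.92 to 5.65. Its change was -0.49 ± 0.18 (limma, adjusted p = 0.0495), and 14 of 15 older ovaries lay under the younger median. No older ovary lay below the lowest younger one, which was replicate 2 of DEHP200 at 3.96. That rests on this 1 library, since the next lowest younger ovary stood at 4.73 and the older ones ran down to 4.18.

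The Bmp15 call was marginal. It was lost when any 1 of 20 of the 30 libraries was left out, with adjusted p from 0.00662 to 0.0962 and changes from -0.60 to -0.42. It held without replicate 1 of DEHP20, replicate 2 of vehicle, DEHP200 or DiNP20, or replicate 3 of DiNP100 at 0 months. It also held without replicate 1 of DEHP20 or vehicle, replicate 2 of DEHP200 or DiNP100, or replicate 3 of DiNP20 at 3 months. Zp1, Zp2, Zp3 and Gdf9 kept their calls without each of the 30 libraries.

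**Figure D2:**
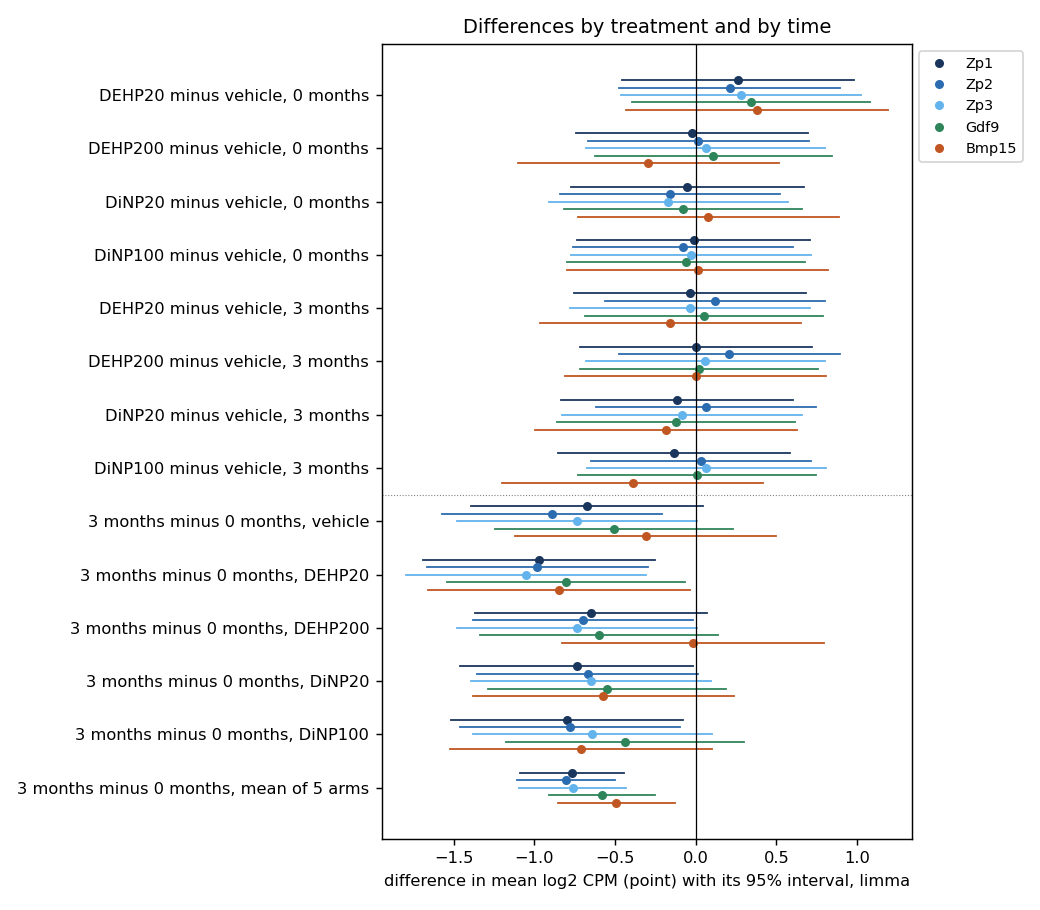
Difference in mean log2 CPM (horizontal axis; point, with its 95% interval from limma) for the 5 genes in 8 treated-versus-vehicle comparisons (above the dotted line) and 6 time comparisons (below it). The intervals above the line all cross 0, and those of the mean of 5 arms lie below 0, from Zp2 at -0.81 to Bmp15 at -0.49.

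Within single arms the means of the 5 genes were lower at 3 months in each arm, with 0 of the 5 past limma's test in any 1 arm. In vehicle ovaries the median of the 5 was -0.67 and Zp2 differed by -0.89 ± 0.33 (limma, adjusted p = 0.596). There 1 of the 5 and 1176 of all 14740 genes had an unadjusted p under 0.05, and 0.00678% of all genes were called. In DEHP20 ovaries the median was -0.97 and Zp2 differed by -0.98 ± 0.33 (limma, adjusted p = 0.328). There 5 of the 5 and 1596 of all 14740 genes had an unadjusted p under 0.05, and 0.0204% of genes were called. All 5 genes had younger and older DEHP20 ovaries that did not overlap, where 21.6% of all genes did so and 11.3% were lower without overlap. With array weights, an alternative whose estimate did not converge, 3 of the 5 passed in vehicle and 5 in DEHP20. That fit gave replicate 2 of vehicle at 3 months a weight of 35.13 and replicate 1 of DiNP100 at 3 months 0.004913. The share of all genes called in that fit was not computed, so these counts have no background beside them.

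In DEHP200 ovaries the median was -0.65, and 1 of the 5 and 1726 of all 14740 genes had an unadjusted p under 0.05. Limma called 0.0136% of genes, and Bmp15 differed by -0.02 ± 0.39 (limma, adjusted p = 0.99). In DiNP20 ovaries the median was -0.65, and 1 of the 5 and 1143 of all 14740 genes had an unadjusted p under 0.05. Limma called 0.0204% of genes, and Zp1 stood at -0.74 ± 0.35 (limma, adjusted p = 0.629). In DiNP100 ovaries the median was -0.71, and 2 of the 5 and 2789 of all 14740 genes had an unadjusted p under 0.05. Limma called 0.0475% of genes, 0.0271% as lower. Groups did not overlap for Zp1 and Zp2 with DiNP20, where 16.1% of all genes did not overlap and 7.12% were lower without overlap, and for Zp2 with DiNP100, where the shares were 16.2% and 8.02%. With vehicle (14.7% of all genes, 7.11% lower) and with DEHP200 (12.6%, 6.23% lower) younger and older ovaries overlapped for each of the 5.

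Whether the time difference depended on treatment was tested by interaction terms against vehicle. Limma called 0 genes (0%) in each of the 4 and 0 of the 5 oocyte genes, none of which had an unadjusted p under 0.05, with 289, 375, 219 and 343 genes at that level for DEHP20, DEHP200, DiNP20 and DiNP100. The largest value was Bmp15 with DEHP20, -0.54 ± 0.55 (limma, adjusted p = 1). The time difference in DEHP20 ovaries was not distinguished from that in vehicle ovaries by this test.

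Within a library, the balance between coat and growth factor genes can be read from log2 differences of their levels, which cancel any scale factor of that library. Zp3 minus Gdf9 averaged -0.76 at 0 months and -0.95 at 3 months. The change of -0.18 was lower in 5 of 5 arms (exact permutation test within arms, two-sided, p = 0.000178, adjusted p = 0.00178 over 10 ratios). Zp2 minus Gdf9 went from 0.24 to 0.02 and Zp1 minus Gdf9 from -1.57 to -1.75, each lower in 5 of 5 arms (exact permutation test, adjusted p = 0.00223 for either). The 3 coat genes therefore fell by more than Gdf9 did. These ratios were chosen after the levels were seen.

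Against Bmp15 the coat genes also fell by more, with a change in the log2 ratio of -0.27 for Zp1 and -0.31 for Zp2 (exact permutation test, adjusted p = 0.0124 for either), and of -0.27 for Zp3 (exact permutation test, adjusted p = 0.0207, lower in 4 of 5 arms). The Zp3 to Bmp15 call was lost without replicate 2 of DiNP100 at 3 months (-0.24, exact permutation test, adjusted p = 0.0624). Within the coat the ratios moved little: 0.04 for Zp1 minus Zp2, -0.00 for Zp1 minus Zp3 and -0.04 for Zp2 minus Zp3 (exact permutation test, adjusted p = 0.456, 0.979 and 0.426). Gdf9 minus Bmp15 changed by -0.09 (exact permutation test, adjusted p = 0.456).

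A pair of libraries departed from the rest in the balance of oocyte genes, Bmp15 among them. Gdf9 minus Bmp15 was 1.97 in replicate 2 of DEHP200 at 0 months and 1.87 in replicate 3 of DiNP100 at 3 months, against a median of 1.05 and a next highest value of 1.51. Without them the SD of this ratio over libraries went from 0.27 to 0.17. Relative to the mean of the 21 other oocyte genes, Bmp15 in these libraries was 0.85 and 0.60 below the mean of the other 28 on the log2 scale, whose SD was 0.18. Bmp15 was not alone in this. In the DEHP200 library Zp2 was 0.28 and Zp3 0.24 above the mean of the other 28, with SDs of 0.11 and 0.12, and in the DiNP100 library Gdf9 was 0.20 above it, with an SD of 0.11. Among the 21 other oocyte genes, Ooep was 0.31 above in the DEHP200 library (SD 0.10). Dppa3 was 0.51, Khdc3 0.51 and Zar1 0.45 above in the DiNP100 library (SD 0.11, 0.16 and 0.13), and Nlrp14 there stood at -0.45 (SD 0.11). These genes were picked after their values were seen. Both libraries also have many genes at the lowest table value, 159 and 187, where the other libraries have 85 to 167. The part of library quality in the Bmp15 values was not tested. Without both, the Bmp15 time change was -0.58 (limma, adjusted p = 0.0105).

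**Figure D3:**
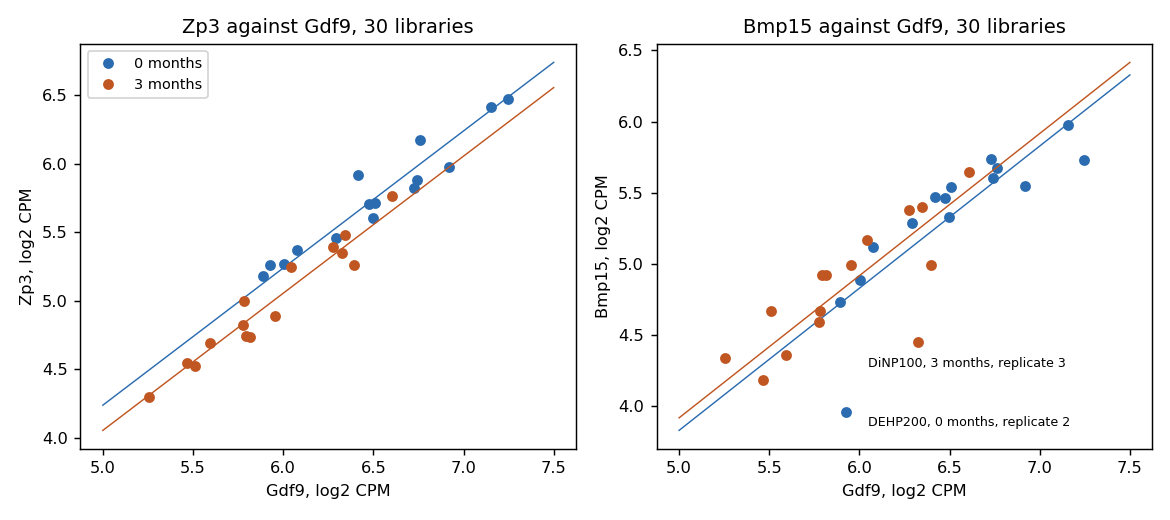
Log2 CPM of Zp3 (left) and Bmp15 (right) against Gdf9 in 30 libraries, blue at 0 months and orange at 3 months, with a line of slope 1 through the mean difference of each time point. On the left the orange line lies 0.18 below the blue one, and on the right 2 labelled libraries lie farthest below the line of their time point.

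The 5 genes varied together from library to library. Over the 30 libraries the coat genes correlated in pairs at r = 0.973 to 0.981 and Gdf9 with the coat genes at 0.946 to 0.969, while Bmp15 correlated with the other 4 at 0.817 to 0.872. After the group means were removed the coat genes stayed at 0.957 to 0.977. These values share library and depth and are given as a description.

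The genes whose pattern was most like the mean of the 5 over the 30 libraries were Khdc1b (r = 0.985), Fbxw24, Oas1e, Ccno, Fbxw28, Nlrp14, Elobl and Astl (0.978). With group means removed they were Nlrp2 (0.986), Fbxw28, Oas1d, Ccno, Fbxw24, Khdc1b, Nlrp14 and Elobl (0.975), and 6 of the 8 names were shared. The number of genes with r above 0.9 was 125 of 14727 over all libraries and 112 with group means removed, against a median r of 0.00 and 0.02.

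Other oocyte genes also fell over time. All 21 on that list were lower and 16 passed limma's test, with a median of -0.68, against 9.63% of all genes called lower. Sycp3, a protein of the meiotic chromosome axis, fell by 1.30 ± 0.16 (limma, adjusted p = 3.21e-05) and Ddx4, the germ cell RNA helicase, by 1.05 ± 0.17 (limma, adjusted p = 0.000371). Sycp3 is a low gene, at a mean of 0.19 log2 CPM over the 30 libraries, close to the filter of 0. Nlrp5 and Padi6, parts of the maternal complex beneath the egg surface, fell by 0.72 and 0.76. Those that did not pass were Oog1 (-0.56), Bcl2l10 (-0.41), Rfpl4 (-0.40), Btg4 (-0.46) and Gpr3 (-0.41).

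With the mean of these 21 genes as a covariate, 0 of the 5 genes passed for time. That mean itself carries the time difference, so this fit cannot test the fall of the 5 genes apart from it. How many of all genes passed in this fit was not computed. Zp1 stood at -0.10, Zp2 at -0.17 (limma, adjusted p = 0.171), Zp3 at -0.07, Gdf9 at 0.12 and Bmp15 at 0.21. Each of the 5 correlated with that mean over the 30 libraries, from r = 0.875 for Bmp15 to 0.980 for Zp3.

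Genes that act on the coat or at the egg surface came next. The median of the 8 was -0.39, with 7 lower and 1 higher. Limma called 3 as lower and 0 as higher, against 9.63% and 10.6% of all genes. Astl, the ovastacin protease that cleaves ZP2 after fertilization, fell by 0.78 ± 0.16 (limma, adjusted p = 0.0032). Izumo1r, the sperm receptor Juno, fell by 0.63 ± 0.18, and Fetub, the inhibitor of ovastacin, by 0.40 ± 0.14. Cd9, a tetraspanin needed for gamete fusion that other cells also make, stood at -0.11 and Cd81 at 0.19, and neither passed.

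Of 12 listed regulators of oocyte genes 11 were tested, Sohlh2 being under the level filter. Of these, 7 were lower and 4 higher, with a median of -0.23. Limma called 6 as lower and 0 as higher, against 9.63% and 10.6% of all genes. Sohlh1 fell by 1.47 ± 0.18 (limma, adjusted p = 3.21e-05). Figla, the activator of the zona genes, fell by 0.97 ± 0.14 (limma, adjusted p = 0.000144) and Nobox, a homeobox regulator of Gdf9, by 0.87 ± 0.15 (limma, adjusted p = 0.000643). Sohlh1 and Figla are low genes, at means of 0.66 and 0.08 log2 CPM over the 30 libraries, close to the filter of 0. Lhx8 fell by 0.86, Ybx2, a germ cell RNA-binding protein, by 0.72 and Tcf3, a broadly expressed E protein that pairs with FIGLA, by 0.23.

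Genes on the receiving side of GDF9 and BMP15 lay on both sides of 0, with medians of 0.01 for the receptors and 0.01 for the SMADs. Of all genes tested limma called 10.6% as higher and 9.63% as lower. Of 8 receptor genes 1 passed, a share near that background: Acvr1, a type I receptor of the BMP arm, which rose by 0.45 ± 0.08 (limma, adjusted p = 0.000718). Bmpr2, the type II receptor for both factors, stood at -0.24, Bmpr1b, the type I receptor for BMP15, at -0.36 and Tgfbr1, the type I receptor for GDF9, at -0.28 (limma, adjusted p = 0.162, 0.0639 and 0.0896). Of 8 SMAD genes 2 rose, Smad9 by 0.82 ± 0.14 (limma, adjusted p = 0.000801) and the inhibitory Smad7 by 0.22 ± 0.08 (limma, adjusted p = 0.0473), and 0 fell, against the same 10.6% of all genes higher.

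Among 5 processing enzymes, which cut or phosphorylate secreted precursors, 3 were lower and 2 higher. Limma called 2 as lower and 0 as higher, against 9.63% and 10.6% of all genes. Pcsk6 fell by 0.41 ± 0.09 and Pcsk5 by 0.33 ± 0.10 (limma, adjusted p = 0.00425 and 0.0221), and Furin stood at 0.09. Of 6 antagonists 3 were higher and 3 lower, with a median of -0.09. Limma called 2 of the 6 as lower and 0 as higher, and of these Fst (follistatin, which binds activin and some BMPs) fell by 0.73 ± 0.14 (limma, adjusted p = 0.00135). Of 14 granulosa and cumulus targets 12 were tested and 2 fell: Grem1, a BMP antagonist induced in cumulus cells, by 1.27 ± 0.23, and Npr2, the receptor that keeps meiosis arrested, by 0.35 ± 0.10 (limma, adjusted p = 0.00132 and 0.0154). With 9.63% of all genes called lower, 2 of 12 is too few to set apart from the background. The median of those 12 was -0.17, and Has2 and Ptgs2 were under the filter.

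**Figure D4:**
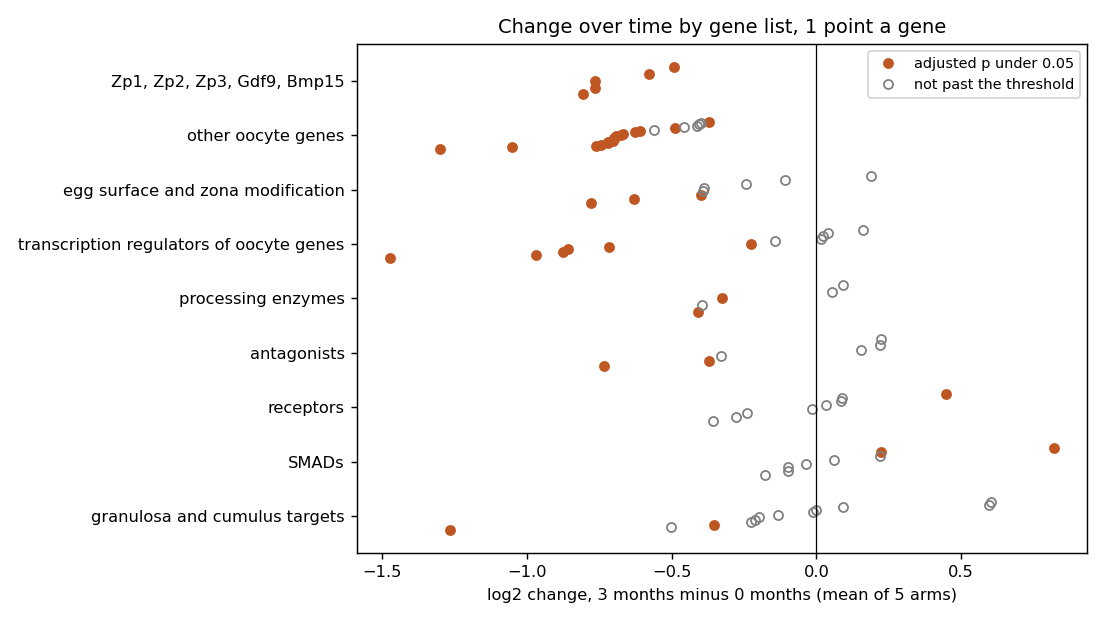
Log2 change from 0 to 3 months, mean of 5 arms (horizontal axis), for each gene of 9 lists (vertical axis); filled points have an adjusted p under 0.05 in limma. The 5 genes and the 21 other oocyte genes all lie left of 0, and receptors and SMADs lie on both sides.

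Markers of other ovarian cells were read over time as well, where limma called 9.63% of all genes as lower and 10.6% as higher. All 8 granulosa markers were lower and 7 fell, with a median of -0.56, and their summed level ran from 2138 to 4584 CPM at 0 months and from 1633 to 3336 at 3 months. Of 5 corpus luteum markers 4 were higher and 1 rose, too few genes to set apart from that background. The 1 that rose was Akr1c18, which degrades progesterone in the ageing corpus luteum, by 3.43 ± 1.10 (limma, adjusted p = 0.0318). The summed level of the 5 markers ran from 248.2 to 8755 CPM at 0 months and from 1684 to 13850 at 3 months. All 4 macrophage markers rose, with a median of 0.68 and summed levels of 55.88 to 113.8 and then 94.94 to 229.5 CPM.

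Across the 30 libraries the mean of the 5 genes correlated at r = 0.745 with the granulosa mean, 0.733 with the theca mean, -0.816 with the corpus luteum mean and -0.713 with the macrophage mean. These values include the time difference. With group means removed, the 5 genes singly correlated at 0.40 to 0.59 with the granulosa mean, 0.62 to 0.76 with the theca mean, -0.84 to -0.78 with the corpus luteum mean and -0.52 to -0.46 with the macrophage mean. The lowest corpus luteum mean, 3.69 log2 CPM, was in replicate 3 of DEHP200 at 0 months, which had the highest Zp3 and Gdf9 levels. The highest, 9.95, was in replicate 3 of vehicle at 3 months, which had the lowest Zp1, Zp2, Zp3 and Gdf9 levels. Summed CPM over all genes ran from 907668 to 1070988 per library at 0 months and from 952464 to 1164842 at 3 months. The part of these cell types and of library composition in the fall of the 5 genes was not tested. Of 4 theca markers 3 fell and 0 rose, where 9.63% of all genes were called lower. Of 6 surface epithelium markers 1 rose, Krt8, by 0.29 ± 0.09 (limma, adjusted p = 0.0245), where 10.6% of all genes were called higher. None of the oviduct or adipocyte markers tested passed, and oviduct markers summed to 2.001 to 147 CPM.

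**Figure D5:**
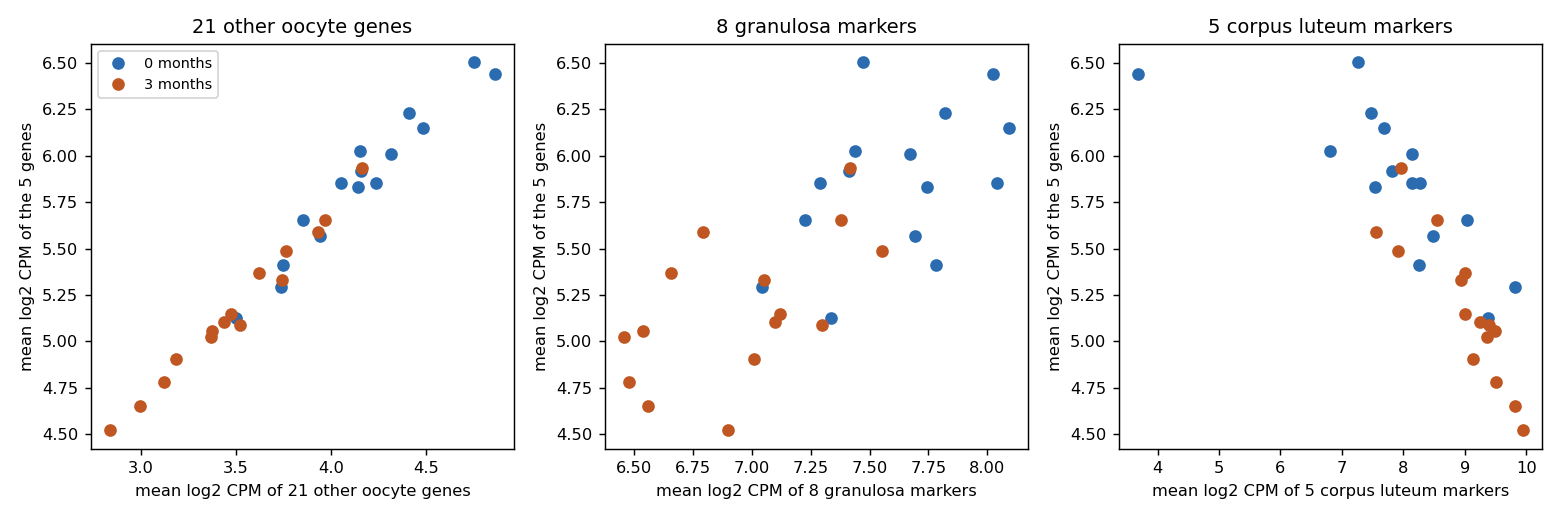
Mean log2 CPM of the 5 genes (vertical axis) against the mean of 21 other oocyte genes (left), 8 granulosa markers (middle) and 5 corpus luteum markers (right), 1 point a library, blue at 0 months and orange at 3 months. The points rise along a narrow band on the left and fall on the right, where r = -0.816.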

How the data were processed

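Whole-ovary RNA was extracted with DNase treatment and made into stranded mRNA libraries sequenced as single reads, per the labels' protocols. FastQC 0.11.8, Salmon 0.11.3, edgeR (no version) and R 3.5.2 are named with GRCm38.p6, per the submitters' processing notes. The authors deposited 1 table of log2 CPM for 18022 genes, and its scaling and prior count are not given in the sources used here. Its lowest value is -3.343 (0.0986 CPM), so changes of low genes are understated. It was used as deposited, depth is approximate, and no count test was run.

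The fit used the 14740 genes whose mean log2 CPM exceeded 0. A linear model with 1 coefficient for each of the 10 groups was fitted to the 30 libraries together, with 20 residual degrees of freedom and a prior variance that follows the mean level (limma 3.58.1 under R 4.3.3; statmod 1.5.0 for robust and weighted fits). Adjusted p-values are Benjamini-Hochberg over all genes within each of 26 comparisons. The script was tested on simulated data. Changes are log2 differences of group means, ± is the SE for a change and the SD for a mean.

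The members and lists were chosen with earlier results of these data known. The genes named are the 5 members, in each comparison the member with the smallest p or all that passed, the 8 genes most like them, and at most 4 examples from a list with its named exceptions. Replicate numbers are in the labels, but same-numbered libraries did not deviate together, so the numbers were not taken to pair them. Alternatives were other scalings, filters, pseudocounts, variance settings, array weights, separate fits, a covariate, a replicate block and leaving out libraries. The value of 1 listed gene is not reported here.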

Additional observations from a re-analysis of the deposited data

How the results depend on the processing

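In the time comparison over 5 arms, Zp1, Zp2, Zp3 and Gdf9 kept direction and call under each alternative except the covariate. With the mean of other oocyte genes as a covariate 0 of the 5 passed, and Gdf9 (0.12) and Bmp15 (0.21) turned sign. That covariate itself carries the time difference. Bmp15 also missed the threshold with no filter (adjusted p = 0.052), no trend (0.0541) and the replicate block (0.0686), all from limma, as with 20 of 30 libraries left out singly. Leaving out 1 library gave 4 to 5 calls.

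The 25 other comparisons had 0 of the 5 called in 510 of 512 alternatives. Array weights, whose estimate did not converge, called 3 of the 5 over time in vehicle and 5 in DEHP20. For that fit the share of all genes called was not computed.

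No paired reading was made: same-numbered libraries correlated at a mean of -0.022 (0 months) and -0.045 (3 months), and 11 and 8 of 30 pairs exceeded 0.1. The replicate block called 4 of the 5 over time and changed no other call.

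Small differences that passed no test turned sign. With array weights Bmp15 was -0.11 for DEHP200 by time and 0.20 for DiNP100 minus DiNP20 at 3 months, and with the covariate Zp3 was -0.016 for DiNP100 minus DiNP20 at 0 months. Without both libraries of highest Gdf9 minus Bmp15, Bmp15 was 0.23 for DEHP200 minus vehicle at 0 months and -0.23 for DEHP200 by time. Zp1 minus Zp3 changed by 0.01 after quantile normalization (0.0142) and with 1 CPM added (0.0121). The cause was not tested.

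Ranges on leaving out 1 library follow. For Bmp15 they were -0.66 to 0.23 (DEHP200 minus vehicle, 0 months), -0.48 to 0.17 (DEHP20 minus vehicle, 3 months) and -0.51 to 0.14 (DiNP20 minus vehicle, 3 months). They were -0.23 to 0.66 (DEHP200 by time), -0.0395 to 0.318 (DEHP200 minus DEHP20, 3 months) and -0.488 to 0.089 (DiNP100 minus DiNP20, 3 months). For Zp2 they were -0.287 to 0.0942 (DiNP100 minus vehicle, 0 months), -0.15 to 0.61 (DEHP200 minus vehicle, 3 months) and -0.13 to 0.62 (DiNP20 by time). Zp3 ran from -0.10 to 0.39 (DiNP100 minus DiNP20, 0 months), Gdf9 from -0.0316 to 0.437 (DEHP20 minus DiNP20, 3 months) and Zp1 minus Zp3 over time from -0.0208 to 0.0319. Zp1, Zp2 and Zp3 minus Gdf9 kept direction and call under all alternatives run.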
